A study of Glycine max with 12 samples.

Results

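Flavanone 3-hydroxylase (F3H), flavonol synthase (FLS1), the glucosyltransferase UGT78K1 and the dihydroflavonol reductase (DFR) gene Glyma.18g057900 were followed in soybean leaves through 7 probe sets of 37593 on the array. They are 4 genes, beside 6029 that the platform annotation names singly. Each probe set pools several short probes into 1 value, and 1 gene can have more than 1 probe set. All probe sets whose single platform gene symbol was F3H, FLS1 or UGT78K1 were taken, together with those that the study's table of changed transcripts gives for F3H (Glyma.02g048400) and for Glyma.18g057900. The platform symbol of the Glyma.18g057900 probe sets is LOC100137082. Of the 7, 3 came from that table and had therefore been chosen for their difference between infested and uninfested susceptible plants. They are an F3H probe set with the suffix _s_at, which marks probes shared among transcripts of more than 1 gene, and a pair of DFR probe sets with the suffixes _a_at, for alternative transcripts of 1 gene, and _x_at, for probes that may bind other transcripts. The other 4 came from the symbol alone and have the suffix _at: 1 for F3H, the first and the second probe set of FLS1, and 1 for UGT78K1. The F3H _at probe set reads the same gene as a table-chosen one, so it is not independent of that choice.

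The arrays hold V3 trifoliate leaves of 2 cultivars: LD16060 (R plants), which carries the aphid resistance gene Rag1, and SD01-76R (S plants), which is susceptible. RA and SA are R and S plants sampled 21 days after 30 soybean aphids were placed on each plant, and RC and SC are the uninfested R and S plants, which were netted and handled in the same way. Each of the 4 groups has 3 arrays, each from leaves of a pair of plants. All plants were given Rhizobium at sowing. In the chamber infested plants were kept to the left and uninfested ones to the right, so an effect of aphids and an effect of position cannot be told apart.

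In flavonoid synthesis, chalcone synthase and chalcone isomerase make flavanones, which F3H converts to dihydroflavonols. At that point the pathway divides: flavonol synthase oxidises dihydroflavonols to flavonols such as quercetin and kaempferol, while DFR reduces them to leucoanthocyanidins, the precursors of anthocyanins and proanthocyanidins. UGT78K1 belongs to the enzymes that attach glucose to the 3 position of anthocyanidins and is known from the seed coat of black soybean. Leaves carry mostly flavonol glycosides and isoflavones, and the isoflavone branch leaves the pathway before F3H. The DFR family is related to the cinnamoyl-CoA reductases of lignin synthesis, and the study's table gives Glyma.18g057900 under lignin biosynthesis.

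Values are given as log2 intensity after quantile normalization over all 12 arrays, a scale on which 1 unit is a 2-fold difference. No background was removed, and the median of the 60 control probe sets lay at 5.40. Of leaf markers, 13 of 16 probe sets lay above that level in every group, with PSAD, CAB3 and rubisco activase among them. Of nodule markers 2 of 4 did so, with a highest group mean of 6.60, and of seed markers 4 of 18. No probe set of these lists passed in SA versus SC (adjusted p 0.17 or higher), but 15 of the 16 leaf probe sets had a lower mean in SA. All 6 of rubisco activase, which keeps the carbon-fixing enzyme active, were among them. Their differences were -0.90 to -0.43 for SA from SC, against -0.24 to -0.0047 for RA from RC. In RA versus RC 11 of the 16 leaf probe sets had a lower mean in RA, and the list ran from -0.24 to 0.68, with a CAB3 probe set highest. The median difference of all soybean probe sets was -0.04 for SA from SC and -0.01 for RA from RC. The log2 summed intensity of the leaf list was 14.72 to 15.57 in RA, 14.76 to 15.26 in RC, 14.80 to 15.06 in SA and 14.98 to 15.33 in SC, so that the groups overlapped. The highest seed marker probe sets were those of Kunitz trypsin inhibitors: KTI-2 averaged 11.12 in RA, 11.11 in RC, 8.71 in SA and 10.48 in SC. The seed list summed to 12.23 to 13.44 in RA, 11.62 to 13.15 in RC, 10.12 to 11.84 in SA and 11.31 to 13.01 in SC, and the nodule list to between 7.54 and 8.48 over all groups. The part of these differences in the results on F3H, FLS1, DFR and UGT78K1 was not tested. Since whole leaves were sampled, fewer cells of a type and less RNA per cell cannot be told apart. Nothing in the sources says that the plants of different arrays were grown apart in time, so p-values measure the spread between these arrays.

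F3H, FLS1 and UGT78K1 fell in infested S plants. All 4 symbol-chosen probe sets fell in SA relative to SC, by 0.90 to 1.12 on the log2 scale (1.86- to 2.18-fold; limma adjusted p 0.014 to 0.037), where passing is an adjusted p under 0.05. In the lower direction 0.902% of all soybean probe sets passed. In all 4 every SA array lay under every SC array, as it did for 10.8% of all soybean probe sets. The 3 table-chosen probe sets had been picked for this difference, so their order is left out of that count. The median difference of all soybean probe sets between SA and SC was -0.04, and -0.17 on the values as deposited. The 4 calls depended on the fit: 0 of the 4 passed on the values as deposited, although their differences there were larger (-1.06 to -1.30), and 0 passed when only the SA and SC arrays were fitted. Only 1 passed without SA replicate 1 and 0 passed without SC replicate 3.

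F3H makes the dihydroflavonols from which both branches start. Its table-chosen probe set, the _s_at one, had 7.58, 7.60 and 7.65 in RA, 7.37, 8.15 and 7.46 in RC, 6.15, 7.01 and 6.72 in SA, and 8.43, 8.36 and 8.49 in SC. The SA arrays were the lowest of the 12 and the SC arrays the highest, with both R groups between them and overlapping each other. The group means were 7.61 ± 0.04 in RA, 7.66 ± 0.43 in RC, 6.63 ± 0.44 in SA and 8.43 ± 0.06 in SC (SD, n = 3). SA lay 3.48-fold under SC, a difference that is not tested, because the study chose this probe set by the same comparison. Since its probes are shared, this value may include related genes.

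The F3H _at probe set had 6.35, 6.27 and 6.22 in RA, 6.10, 6.20 and 6.31 in RC, 5.15, 5.99 and 5.83 in SA, and 6.57, 6.58 and 6.92 in SC. The order of the groups was again SC, then both R groups overlapping each other, then SA. SA replicate 1 lay under the control median, so the probe set was near the level of controls there and its fold may be understated. In SA versus SC it fell by 1.04 (SE 0.20, 2.05-fold, adjusted p 0.014), the lowest adjusted p among the 4 symbol-chosen probe sets. With each array left out in turn the adjusted p ran from 0.0075 to 0.060.

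FLS1 takes the step to flavonols. Its first probe set had 7.76, 7.41 and 8.08 in RA, 7.37, 7.56 and 7.44 in RC, 6.52, 7.31 and 7.07 in SA, and 8.07, 7.80 and 8.41 in SC. The group means ran from SC (8.09 ± 0.31) through RA (7.75 ± 0.34) and RC (7.46 ± 0.10) to SA (6.97 ± 0.40; SD, n = 3). RA overlapped both of its neighbours in that order, while the highest SA array lay just under the lowest RC array. FLS1 fell in SA relative to SC by 1.12 in this probe set (SE 0.23, 2.18-fold, adjusted p 0.020).

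The second FLS1 probe set had 6.85, 6.58 and 6.80 in RA, 6.43, 6.60 and 6.59 in RC, 5.76, 6.43 and 6.14 in SA, and 6.86, 6.95 and 7.20 in SC. It gave the same order of group means, with the highest SA array and the lowest RC array level at 6.43. It fell in SA relative to SC by 0.90 (SE 0.17, 1.86-fold, adjusted p 0.016). Both FLS1 probe sets read 1 gene and are not 2 observations of the pathway.

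The DFR enzyme opens the anthocyanin branch, but the study's table gives the DFR gene measured here under lignin biosynthesis. Whether its product acts in the anthocyanin branch was not tested. The DFR _a_at probe set had 12.05, 10.91 and 11.43 in RA, 10.91, 11.68 and 11.63 in RC, 8.34, 10.00 and 9.71 in SA, and 11.69, 10.63 and 11.58 in SC. The _x_at probe set had 11.28, 10.65 and 10.81 in RA, 10.55, 11.33 and 11.15 in RC, 7.57, 9.39 and 9.29 in SA, and 11.30, 10.66 and 10.94 in SC. In both, RA, RC and SC overlapped one another and only the SA arrays lay apart. The differences of SA from SC were -1.95 and -2.22 and are not tested, because the study chose these probe sets by the same comparison. The SA arrays of the _x_at probe set were also the most spread among the groups of the 7 probe sets (SD 1.02, n = 3). Without SA replicate 1 its difference was -1.63.

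UGT78K1, the glucosyltransferase, had 6.44, 6.67 and 7.19 in RA, 7.02, 6.60 and 6.45 in RC, 6.22, 6.36 and 6.46 in SA, and 7.16, 7.16 and 8.0 in SC. The SA arrays lay close together (6.35 ± 0.12) under the SC arrays (7.44 ± 0.48; SD, n = 3), and each R group overlapped both of them in part, except that RC lay wholly under SC. It fell in SA relative to SC by 1.09 (SE 0.26, 2.13-fold), with an adjusted p of 0.037, the highest of the 4. Its call was the least steady: with each array left out in turn its adjusted p ran from 0.033 to 0.16, and it missed the threshold in 5 of 12 such fits.

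**Figure D1:**
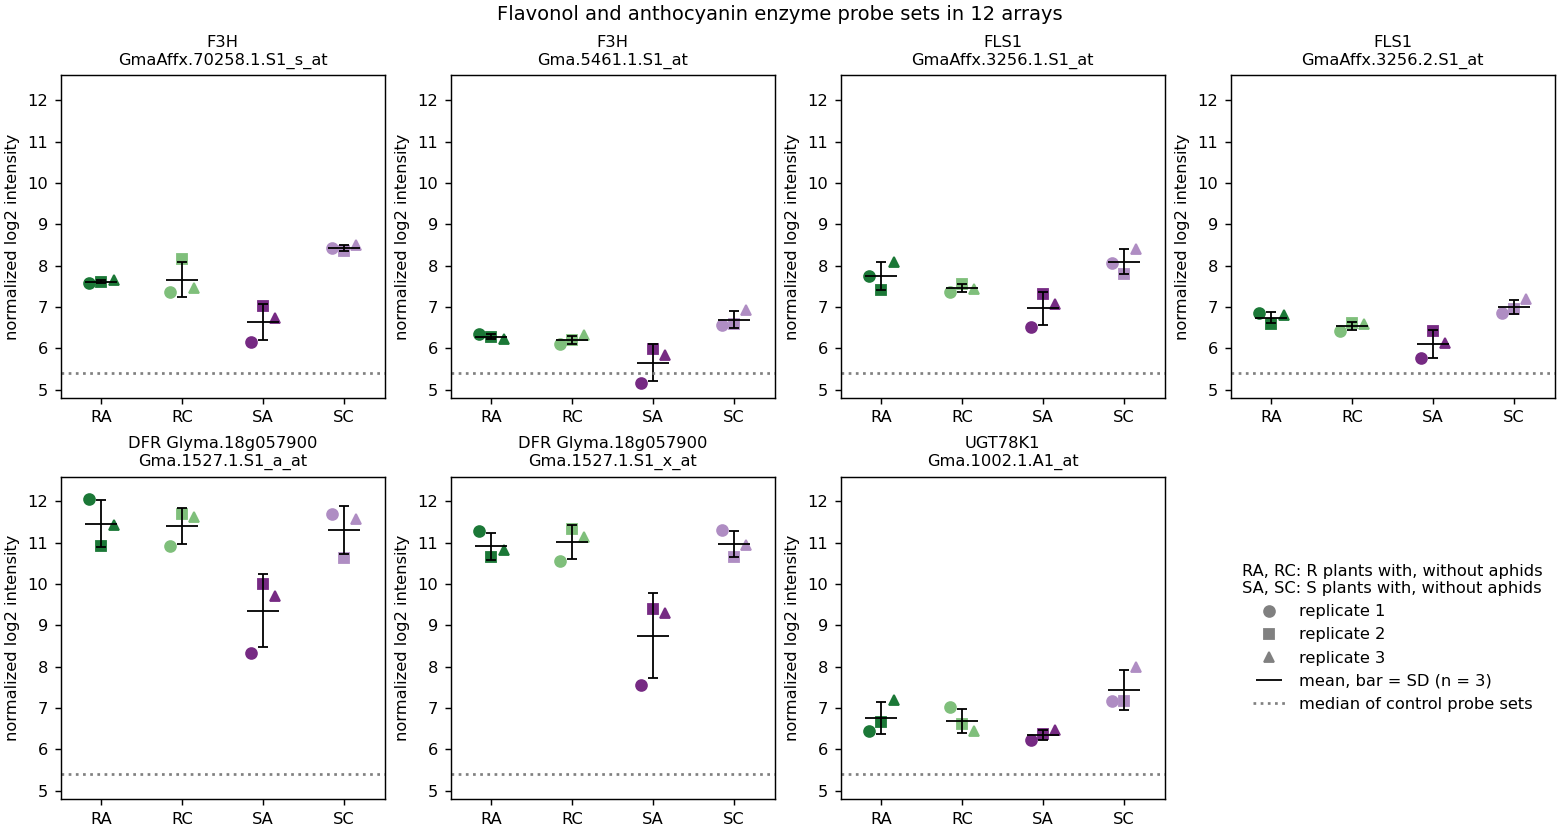
Normalized log2 intensity (vertical axes) of the 7 probe sets in each of the 12 arrays, by group (horizontal axes); the FLS1 panels show the first probe set on the left; symbols mark the replicate number, black lines the mean with its SD (n = 3), and the dotted line the median of control probe sets, 5.40. The SA arrays lie under the SC arrays in all 7 panels, 3 of which were chosen for that difference, RA and RC overlap in every panel, and SA replicate 1 is the lowest array of each panel.

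In R plants the same enzymes showed no difference past the spread between arrays. RA and RC overlapped in all 7 probe sets, while the groups did not overlap for 6.25% of all soybean probe sets. This comparison uses no array on which any probe set was chosen, so all 7 were tested, and 0 passed (limma, unadjusted p 0.23 to 0.90). Of all soybean probe sets 0 of 37593 (0%) passed and 776 had an unadjusted p under 0.05, none of them among the 7. The differences of RA from RC ran from -0.10 to 0.29. For F3H the 95% interval was -0.55 to 0.45 for the _s_at and -0.35 to 0.51 for the _at probe set. For FLS1 it was -0.21 to 0.80 for the first and -0.18 to 0.58 for the second probe set. For UGT78K1 the interval was -0.48 to 0.63, and for DFR it was widest, -0.90 to 1.01 and -0.99 to 0.80, so that changes of nearly 2-fold either way could not be detected there.

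The difference between the responses of the cultivars was tested as the R response (RA minus RC) minus the S response (SA minus SC). It was 1.11 for the F3H _at probe set, 1.42 and 1.10 for FLS1, and 1.17 for UGT78K1. All 4 had an unadjusted p of 0.00079 to 0.0070 by limma, but none passed after adjustment (adjusted p 0.24 to 0.45), against 0.00798% of all soybean probe sets. Under the study's relaxed criteria, a fold of at least 2 and an unadjusted p at or under 0.05, all 4 qualified, as did 0.918% of all soybean probe sets in that direction. For the table-chosen probe sets the difference of responses was 1.75 for F3H and 2.01 and 2.13 for DFR, given with no test because the S arrays chose them.

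Without aphids, the F3H, FLS1 and UGT78K1 values of R plants lay under those of S plants. In all 4 symbol-chosen probe sets every RC array was lower than every SC array, as for 3.56% of all soybean probe sets. On the values as deposited RC and SC overlapped in all 7 probe sets of the rule. The differences of RC from SC were -0.49 for F3H (_at), -0.63 and -0.46 for FLS1 and -0.75 for UGT78K1. Their unadjusted p by limma was 0.012 to 0.030 and none passed after adjustment, against 0.0745% of all soybean probe sets in either direction. The table-chosen F3H probe set differed by -0.77, and those of DFR by 0.11 and 0.04, with an SE of 0.44 and 0.41, all 3 untested. These differences use the SC arrays that also enter SA versus SC.

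Between infested plants, 3 of the 4 symbol-chosen probe sets were higher in every RA array than in every SA array, as were 9.55% of all soybean probe sets. The exception was UGT78K1, whose difference was 0.42 (95% interval -0.13 to 0.98, adjusted p 0.49). F3H differed by 0.63 in its _at probe set (adjusted p 0.13), and FLS1 by 0.78 (adjusted p 0.10) and 0.64 (adjusted p 0.077). None of the 4 passed, while 0.702% of all soybean probe sets passed in the higher direction. With a block for the replicate number, the second FLS1 probe set passed (adjusted p 0.049), and it also did so without SA replicate 2 (adjusted p 0.026). The table-chosen probe sets differed by 0.98 for F3H and by 2.11 and 2.16 for DFR, untested. Rag1 limits aphid numbers, and the load on each plant at harvest is not among the array data. The study counted significantly more aphids on S than on R plants the day before harvest. It did not consider infested S against infested R plants a reliable comparison. Cultivar and aphid load therefore cannot be told apart here, in the difference of responses, or where RA versus RC is set beside SA versus SC. RA versus SA shares its arrays with the preceding comparisons.

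**Figure D2:**
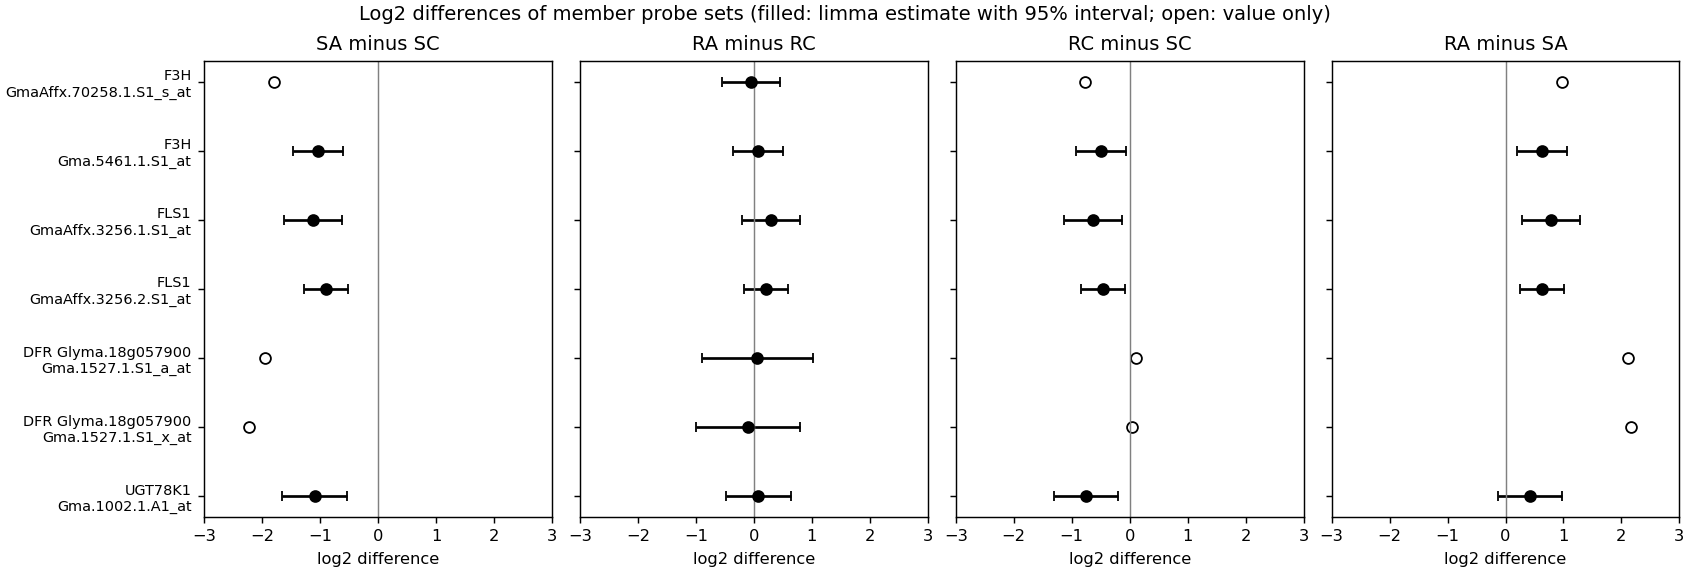
Log2 difference (horizontal axes) of each of the 7 probe sets in 4 comparisons. Filled points are limma estimates with 95% intervals and open points are values with no test, of probe sets chosen on arrays of that comparison. SA minus SC lies at -0.90 or lower for every probe set, and RA minus RC lies between -0.10 and 0.29 with every interval spanning 0.

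The study's selection by SA versus SC divides the 7 probe sets, so larger differences in the table-chosen ones are built into that choice. On the values as deposited, SA minus SC was -1.98 for the F3H _s_at probe set, the smallest difference of the 3 table-chosen probe sets, and -2.11 and -2.38 for DFR. Of those not in the table, the first FLS1 probe set had the largest difference, -1.30. UGT78K1 had -1.26, the F3H _at probe set -1.18 and the second FLS1 probe set -1.06.

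Over the 12 arrays the 7 probe sets moved together to different degrees, a description over arrays that share the group differences. Pearson's r was 0.93 between the F3H probe sets, 0.96 between those of FLS1 and 0.98 between those of DFR. F3H and FLS1 correlated at 0.89 to 0.97. DFR correlated at 0.79 to 0.85 with F3H and FLS1, but at 0.45 and 0.47 with UGT78K1. UGT78K1 correlated at 0.74 to 0.82 with F3H and FLS1.

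Other enzymes of flavonoid synthesis were counted by symbol, in 36 probe sets of 18 genes. In SA versus SC 4 of the 36 passed in the higher direction, against 2.51% of all soybean probe sets, and 0 in the lower direction, where the share of all soybean probe sets was 0.902%. The median difference over the list was 0.16. All 4 were probe sets of CHS1, a chalcone synthase, the entry enzyme upstream of F3H. Chalcone synthases are a family of near-identical genes, so the signal of 1 member cannot be set apart from that of others. The 7 CHS1 probe sets ranged from -0.22 to 2.60. Those at -0.22 and 0.25 lay under the control median of 5.40 in every group, so their values say little about CHS1. Well above that level, another at -0.06 averaged 8.35 in SA and 8.41 in SC, so the probe sets disagreed. The largest rise was that of a CHS1 probe set with 6.02, 7.31 and 6.24 in RA, 6.17, 5.60 and 5.69 in RC, 9.47, 8.80 and 8.29 in SA, and 7.10, 6.10 and 5.55 in SC (SA minus SC 2.60, adjusted p 0.0062). All SA arrays stood above all others. The study's table already lists this probe set as higher in infested S plants, so its call here is not independent of the study's. The remaining CHS1 probe sets that passed rose by 2.18, 1.96 and 1.71, and those at 1.96 and 1.71 are an _at and _x_at pair on the same transcript. Those of CHS8, another chalcone synthase on the list, differed by 0.15 to 1.11 and did not pass. The study's table also gives a chalcone synthase gene outside this list as lower in infested S plants. With a block for the replicate number 7 of the 36 passed, and 2 passed when only the SA and SC arrays were fitted.

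Downstream of F3H the remaining enzymes on the list did not pass in SA versus SC. The reductases DFR1 and DFR2, 2 further DFR genes, differed by -0.02 and -0.27, and ANS2, an anthocyanidin synthase, by -0.12. The proanthocyanidin enzymes ANR1 and LAR1 differed by -0.07 and 0.06. The probe sets of DFR1, DFR2, ANS2, ANR1 and LAR1 all lay near the control median of 5.40. Their group means ran from 5.04 (LAR1 in SC) to 5.76 (ANS2 in RC), so their small differences cannot show that these transcripts were unchanged. In the isoflavone branch, the isoflavone synthases IFS1 and IFS2 differed by -0.53 (95% interval -1.29 to 0.23) and 0.39 (-0.65 to 1.43), and the 5 chalcone reductase probe sets by -0.09 to 0.35. The 12 chalcone isomerase probe sets ran from -0.38 to 0.63. In RA versus RC 0 of the 36 passed in either direction, with a median difference of -0.07 and a range of -0.61 to 0.71.

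**Figure D3:**
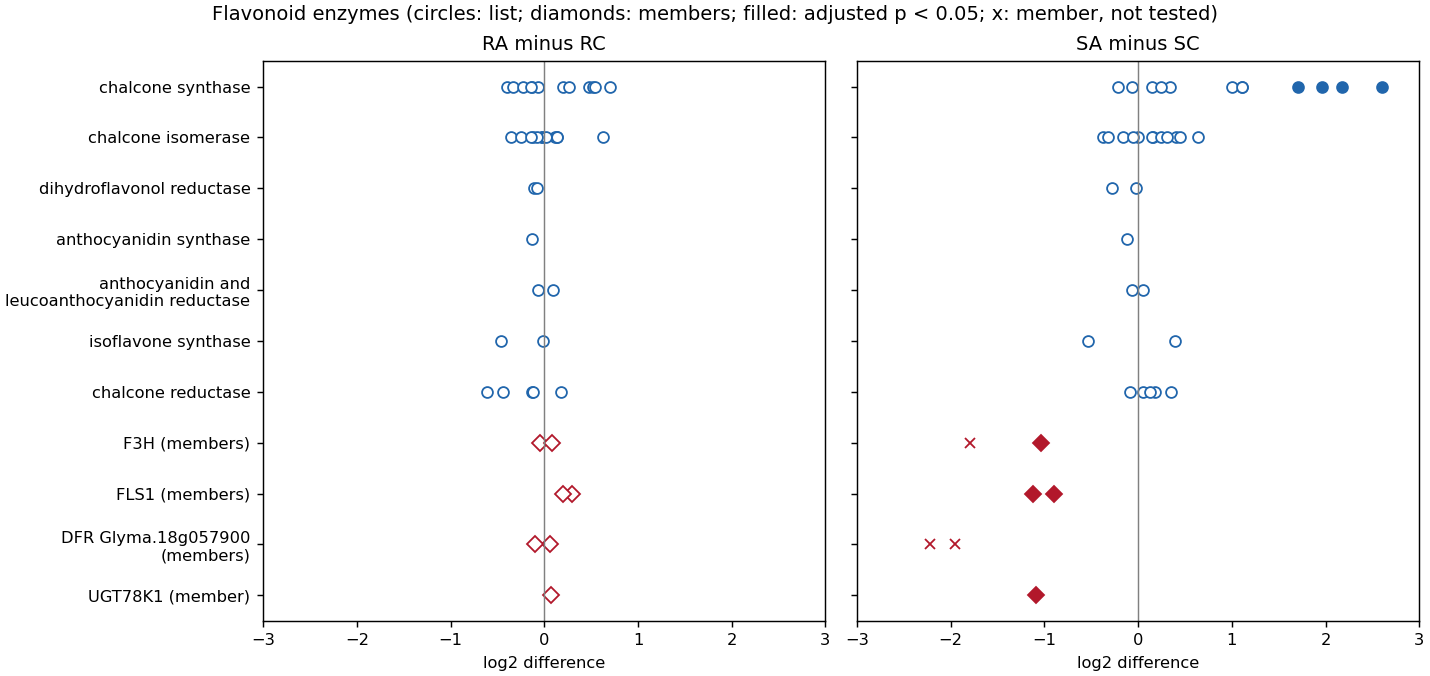
Log2 differences (horizontal axes) of 36 probe sets of other flavonoid enzymes (circles) and of the 7 probe sets of F3H, FLS1, DFR and UGT78K1 (diamonds, or crosses where not tested), by enzyme, for RA minus RC and SA minus SC. Filled symbols passed at an adjusted p under 0.05. In SA minus SC the 4 filled circles are CHS1 probe sets at 1.71 to 2.60 and the 4 filled diamonds lie at -0.90 to -1.12, and in RA minus RC nothing is filled.

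Of the further probe sets of related enzymes in the study's table, 3 are given here, as values only. They were chosen on the same S arrays. The probe set that the study assigns to the DFR gene Glyma.11g164700, and the platform to the same symbol as Glyma.18g057900, averaged 11.52 in RA, 11.61 in RC, 9.91 in SA and 11.60 in SC. It repeated the pattern of the DFR probe sets, with SA alone apart, and probes of both genes may bind either transcript. The flavonoid glycosyltransferase Glyma.16g033700 averaged 10.08 in RA, 9.91 in RC, 8.05 in SA and 9.78 in SC, with SA and SC arrays overlapping. The anthocyanin acyltransferase Glyma.13g302500 went the other way, with 6.44 in RA, 5.76 in RC, 8.60 in SA and 6.35 in SC.

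The probe sets most like each gene were found over the 12 arrays among those above the median level, by Pearson's r, using the brightest probe set of each gene. For F3H they were MYB145 (0.93), LOC100788723 (0.93), PIP1-1 (0.92) and 2 probe sets with no gene name here (0.93 and 0.92). MYB145 averaged 7.99 in RA, 8.09 in RC, 7.38 in SA and 8.24 in SC, and PIP1-1 averaged 9.53 in RA, 9.66 in RC, 8.89 in SA and 9.80 in SC. For FLS1 the closest were LOC100306411 and a probe set with no gene name here (both 0.93), and for UGT78K1 the closest was LOC100306108 (0.93). For DFR they were the Glyma.11g164700 and _x_at probe sets (both 0.98), 2 with no gene name here (0.96 and 0.95) and TUBB3 (0.95).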

How the data were processed

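RNA of 12 leaf samples was hybridised to Affymetrix Soybean Genome arrays. The log2 values deposited by the authors are said in the Methods to be GCRMA normalized, and their processing notes list RMA, GCRMA and limma, no version given. When unlogged, 99.6% of the values are whole numbers (relative tolerance 1e-06) and the medians of the arrays lie between 6.86 and 7.71, so no scaling between arrays is visible. The 37593 soybean probe sets were therefore quantile normalized. Differences were fitted in limma 3.58.1 (R 4.3.3) as contrasts of the 4 group means, with the spread shared by all 12 arrays and p-values adjusted by Benjamini-Hochberg across the soybean probe sets. Precision is limited by the number of arrays. The platform annotation gave 1 gene to 8677 probe sets, several to 370 and none to 28546 soybean probe sets.

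The genes and lists were chosen with earlier results of these data known. All probe sets of the rule are named. Of other flavonoid enzymes, those that passed in SA versus SC or RA versus RC were to be named. So were the related enzymes of the study's table given above, and the 5 probe sets most like each gene above the median level. For FLS1 and UGT78K1 only the closest of those 5 are given. The remaining list members named were chosen after their values were seen. The chalcone isomerase symbols were narrowed after the platform symbols were seen and before any value was tested. The fold changes and p-values in the study's table were not used.

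Deviations from group means of arrays with the same replicate number correlated at 0.13 to 0.36 in SA and SC, 0.29 to 0.48 in RC and SC, 0.17 to 0.42 in RA and SA, and -0.12 to 0.49 in RA and RC. Arrays with different numbers correlated at up to 0.20 in SA and SC, 0.026 in RC and SC, 0.049 in RA and SA, and 0.39 in RA and RC. Judged from the data alone, the numbers pair arrays in RC and SC and in RA and SA. In SA and SC and in RA and RC pairing is not shown, since the highest value of different numbers exceeded the lowest of the same number. In the growth chamber the plants stood in complete blocks, within plots at different distances from its back wall. The sources used here do not say whether the array numbers follow those blocks or which plants were pooled, and no block is named for the study's array model, so the reported fit has none. Alternatives were the values as deposited, median centring, normexp background correction (offset 50), only probe sets above the median level, the replicate number as a block, trended robust moderation, only the arrays compared, the study's criteria and leaving out 1 array at a time. The script was tested on simulated data before use.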

Additional observations from a re-analysis of the deposited data

How the results depend on the processing

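In SA versus SC, where 4 of 4 symbol-chosen probe sets of F3H, FLS1 and UGT78K1 passed, 0 passed on the values as deposited, 0 with only the arrays compared, 0 under the study's strict criteria, and 1 with only probe sets above the median level, a filter that removes 3 of these 4. With 1 array left out the count ran from 0 to 4. Of the flavonoid enzyme list 4 probe sets passed as higher, against 0 above the median level, 2 with only the arrays compared and 2 under the strict criteria. With the replicate block 7 passed. With 1 array left out 2 to 4 passed, with 2 without SA replicate 1 or 3 and without SC replicate 2 or 3. The median filter leaves dim probe sets untested. The 4 CHS1 probe sets had RC means of 5.68 to 5.82, so the 0 there need not be a lost call. In RA versus SA 0 passed, against 1 with the replicate block and 0 to 1 with 1 array left out. The difference of responses had 0 passing and 4 under the relaxed criteria. The block changed no other call. Where not shown above, the causes of these changes were not tested.

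Some differences of RA from RC, all near 0, changed sign. On the values as deposited the F3H _at probe set had -0.019 and UGT78K1 -0.027. With 1 array left out they ran from -0.20 to 0.19 for the F3H _s_at probe set, from -0.23 to 0.33 and from -0.33 to 0.068 for the DFR _a_at and _x_at probe sets, and from -0.14 to 0.24 for UGT78K1. The signs of the DFR differences of RC from SC, with ranges of -0.23 to 0.35 and -0.12 to 0.27, are not settled either. No SA minus SC difference of the 4 symbol-chosen probe sets changed sign in any alternative run. With 3 arrays a group and no background removed, values near the control level limit what the F3H _at probe set can show.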
